A study of Mus musculus with 16 samples.

Results

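Sox9 and 7 other genes tied to tubule injury and regrowth were followed through mouse kidneys with and without glycerol-induced rhabdomyolysis. The genes were Sox9, Sox4, Cd44, Cd24a, Vcam1, Prom1, Pax2 and Pax8. They were chosen by symbol, and each symbol matched 1 gene, which gave 8 of the 20525 genes measured. The mice were WT or labelled C3-/-, a genotype aimed at complement component C3, and the study asked how the 2 genotypes differ in acute kidney injury after muscle breakdown. RNA was taken from frozen kidney sections cut at 30 µm and sequenced in 16 libraries. All mice were 8 weeks old, with a strain background written C56BL/6. The groups were C3-/- mice given glycerol, C3-/- mice given PBS, WT mice given glycerol and WT mice given PBS, with 4 libraries each. Glycerol was injected at 7.5 ml/kg of a 50% solution into a thigh muscle. The labels give no sex, no time between injection and sampling, and no statement that libraries came from separate animals. The spread behind each p-value is thus that between these libraries, and part of it may be technical.

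SOX9 is a transcription factor with an HMG box, a DNA-binding domain, and in injured kidney it appears in tubule cells that re-enter growth. SOX4 is an HMG-box factor of another subgroup, PAX2 and PAX8 are paired-box factors that direct nephron formation, and PAX8 remains in adult tubule cells. CD44 is a receptor for hyaluronan and osteopontin, VCAM-1 is an adhesion molecule that holds leukocytes through an integrin, and CD24 and CD133 (the product of Prom1) mark scattered tubule cells in human kidney.

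The deposited values were counts normalized by the authors, summing to between 25.81 M and 38.39 M per library (M, 1e+06), and the read depth behind them is unknown. Numbers at the end of the sample descriptions run from 1 to 13 for 13 libraries (list 1 here), while 3, 4 and 5 occur a second time for glycerol libraries 1 and 3 labelled C3-/- and WT glycerol library 4 (list 2). The list 2 libraries stood apart on the first principal component, which held 45% of the variance. Their scores were 143.6, 96.4 and 220.4, and the list 1 libraries lay between -58.6 and 39.5. WT glycerol library 4 also listed 3374 genes at 0, against 190 to 982 in the other 15 libraries. Results are therefore given with all 16 libraries and within list 1, which keeps 2 glycerol libraries labelled C3-/- and 3 WT glycerol libraries. C3 itself was not lower under the C3-/- label: after glycerol it was 1457.3 to 8008 in libraries labelled C3-/- and 1711.7 to 4717.5 in WT libraries. After PBS it was 563.8 to 1139.7 in libraries labelled C3-/- and 334.9 to 470.5 in WT libraries. The deleted part of C3 is not given, so a count over the whole gene does not check the label. Ddx3y, a Y-linked gene, was at most 1.1 in PBS libraries 1 to 3 and glycerol libraries 1 and 2 labelled C3-/-, and at least 481.5 in the other 11 libraries. All 8 WT libraries were in the second set, so genotype and the presence of Y-linked transcripts cannot be fully told apart. Markers of kidney tubule were high in every library, with proximal tubule sums of 92734 to 344656 in glycerol libraries labelled C3-/-, 344012 to 465595 in PBS libraries labelled C3-/-, 37002 to 171834 in WT glycerol libraries and 377969 to 421790 in WT PBS libraries.

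In WT kidneys glycerol was followed by higher Sox9, Cd44, Pax8 and Sox4, with Sox9 raised 85.3-fold. In libraries labelled C3-/- Sox9 alone passed the test, at 2.93-fold. A gene was called when its limma p-value, Benjamini-Hochberg adjusted over 18035 genes, was below 0.05. In libraries labelled C3-/-, 1 of the 8 genes was called higher after glycerol and none lower, where 3.68% of all genes were called higher, 1.96% lower and 5.63% in either direction. In WT libraries 4 of the 8 genes were called higher and none lower, where 12.5% of all genes were called higher, 13.3% lower and 25.9% in either direction. Within list 1 the counts were 4 of 8 higher in libraries labelled C3-/-, beside 12.5% of all genes, and 6 of 8 higher in WT, beside 26.8%. The median log2 fold change of the 8 genes was 0.30 in libraries labelled C3-/- and 1.03 in WT libraries, beside -0.06 and -0.11 for all genes. Sox9, Sox4, Cd44 and Pax8 had WT glycerol values above every WT PBS value, which held for 18.2% of all genes, and none of the 8 genes separated in this way in libraries labelled C3-/- (9.53% of all genes). In bulk tissue, fewer cells of a type and less RNA per cell cannot be told apart.

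**Figure D1:**
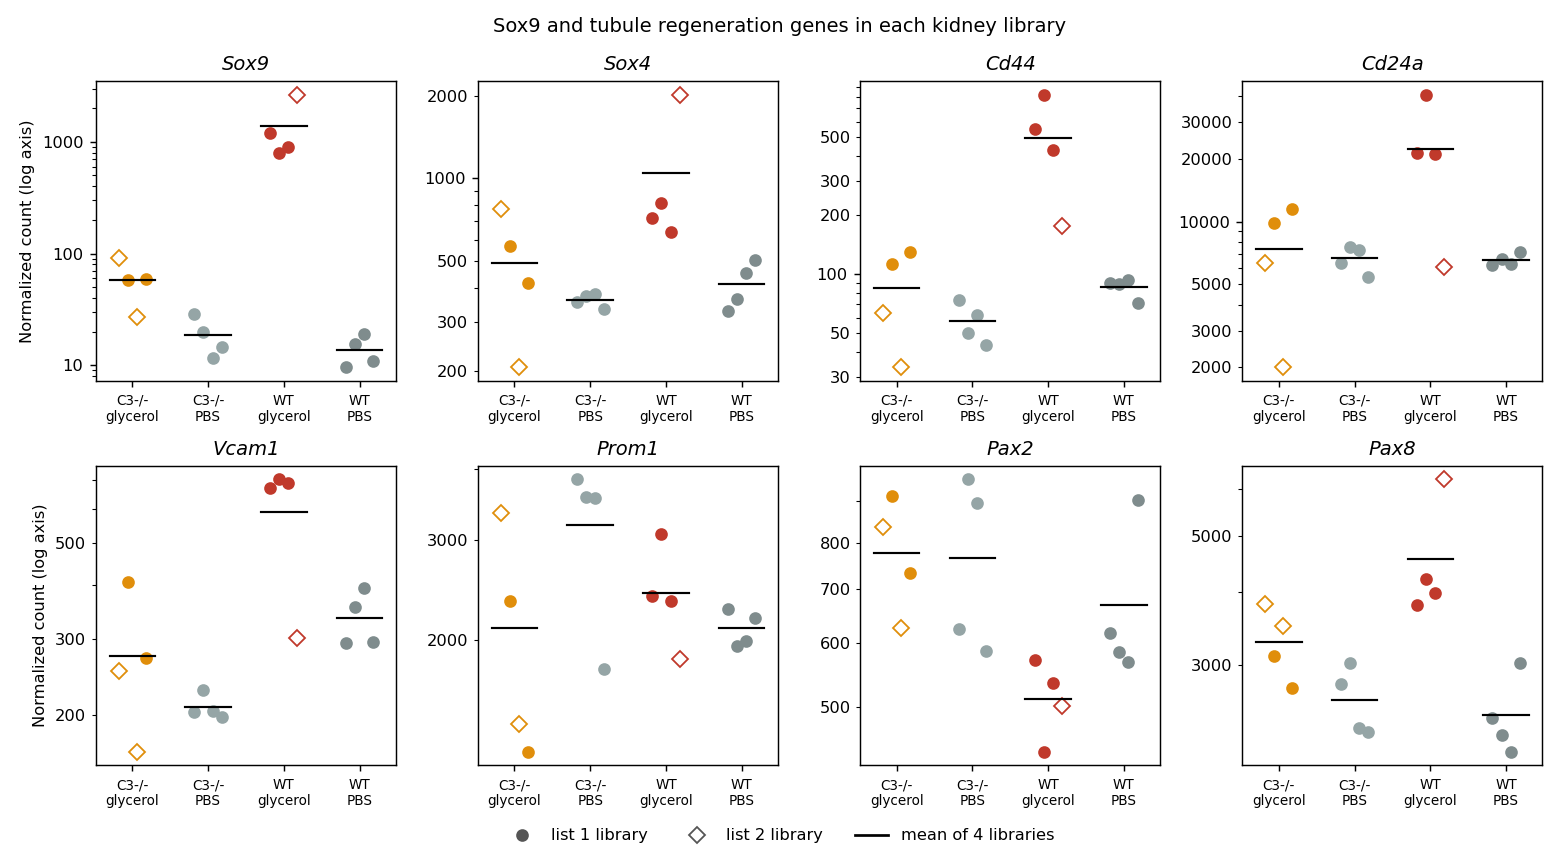
Normalized count (log axis) of each of the 8 genes in every library, by group, with filled circles for list 1, open diamonds for list 2 and a bar at the mean of 4 libraries. In the Sox9 panel all 4 WT glycerol libraries, at 788.5 to 2644.5, lie far above every other library, including those labelled C3-/- after glycerol at 27.2 to 91.0.

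Sox9 (ENSMUSG00000000567, chr11:112782224-112787760, plus strand, GRCm38) was low without glycerol in both genotypes. Glycerol libraries 1 to 4 labelled C3-/- had 91.0, 57.4, 27.2 and 58.7 normalized counts, against 28.8, 20.0, 11.6 and 14.5 in the PBS libraries with that label. WT glycerol libraries had 1202.0, 788.5, 890.5 and 2644.5 normalized counts, against 9.6, 15.5, 19.2 and 11 in WT PBS libraries. The WT groups did not overlap, and under the C3-/- label 3 of 4 glycerol libraries stood above every PBS library. The log2 fold change was 1.55 ± 0.43 (SE) in libraries labelled C3-/- (limma, adjusted p = 0.0483). It was 6.41 ± 0.43 in WT libraries (adjusted p = 6.23e-07), which ranked 14 of 18035 by height and 6 by p. The call in libraries labelled C3-/- sits at the threshold: it was lost when any 1 of 13 libraries was left out, with an adjusted p of up to 0.16. It was kept without glycerol library 3 labelled C3-/- (log2 fold change 1.87, adjusted p = 0.0156), without WT glycerol library 2 (adjusted p = 0.0482) and without WT glycerol library 4 (adjusted p = 0.0153). Within list 1 the log2 fold changes were 1.66 ± 0.34 (adjusted p = 0.0045) for libraries labelled C3-/- and 6.04 ± 0.30 (adjusted p = 3.83e-08) for WT.

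The 2 glycerol responses of Sox9 differed by -4.86 ± 0.61 on the log2 scale (C3-/- minus WT, 95% interval -6.17 to -3.56; limma interaction, adjusted p = 0.00286). Of all genes, 0.438% were called in that test and 0.216% were called lower, and Sox9 ranked 6 by p and 6 from the lowest. After glycerol, Sox9 averaged 58.6 ± 26.1 normalized counts in libraries labelled C3-/- and 1381 ± 860 in WT libraries (SD, n = 4 each). That is a log2 difference of -4.48 ± 0.43 (adjusted p = 1.06e-05), and the groups did not overlap. After PBS the averages were 18.7 ± 7.57 in libraries labelled C3-/- and 13.8 ± 4.4 in WT libraries (SD, n = 4 each), and the log2 difference of 0.38 did not pass the test (95% interval -0.54 to 1.3). Leaving out any 1 library kept the call of the difference in responses, with values from -5.11 to -4.49, and within list 1 it was -4.38 ± 0.46 (adjusted p = 0.000688). Among the 3 list 2 libraries alone, Sox9 was 91.0 and 27.2 under the C3-/- label and 2644.5 in WT.

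Sox4 (ENSMUSG00000076431, chr13:28948919-28953713, minus strand) also rose in WT, by less than Sox9. Glycerol libraries labelled C3-/- had 772.2, 570.4, 206.0 and 417.5 normalized counts, against 356.4, 374.2, 380.6 and 336.3 in PBS libraries with that label. In WT, glycerol libraries had 715.4, 815.5, 640.9 and 2016.9, against 331.0, 365.7, 452.3 and 506.7 in WT PBS libraries. All 4 WT glycerol libraries lay above all WT PBS libraries, with library 4 far above the other 3, while under the C3-/- label the glycerol libraries fell on both sides of the PBS libraries. The log2 fold change was 0.29 ± 0.38 in libraries labelled C3-/- (adjusted p = 0.622) and 1.19 ± 0.38 in WT libraries (adjusted p = 0.0315). The WT call was lost without WT glycerol library 2 (adjusted p = 0.0513) or 4 (log2 fold change 0.82, adjusted p = 0.0796). It was also lost without WT PBS library 1, 2 or 3 (adjusted p = 0.086, 0.0775 and 0.0558), and within list 1 it was 0.82 ± 0.15 (adjusted p = 0.000631). The Sox4 difference in responses was -0.90 ± 0.54 (limma interaction, adjusted p = 0.644), and within list 1 it was -0.39 ± 0.23 (adjusted p = 0.291). Gm26735, a long noncoding RNA, overlaps Sox4 on the opposite strand and the strand setting of the counting is not given, so Sox4 counts are uncertain. In libraries 1 to 4, Gm26735 was listed at 0, 207.1, 57.6 and 257.3 after glycerol under the C3-/- label, and at 510.7, 965.6, 455.7 and 0 in WT glycerol libraries. After PBS it was 188.3 to 252.6 under the C3-/- label and 226.5 to 310.2 in WT. The library highest in Sox4 thus listed Gm26735 at 0, and the part of shared reads in either value was not tested.

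Of the other Sox genes, 9 of the 18 on the list were expressed enough to test, and in WT libraries glycerol was followed by 1 call higher, Sox11, and 1 lower, Sox12, where 12.5% of all genes were called higher and 13.3% lower, so the share of calls is near that of all genes. Sox11, the SoxC relative of Sox4, averaged 7.09 ± 3.06 normalized counts after glycerol and 11.1 ± 4.93 after PBS in libraries labelled C3-/- (SD, n = 4 each). In WT libraries it averaged 61.4 ± 36.7 after glycerol and 12.9 ± 2.34 after PBS. The WT log2 fold change was 2.0 ± 0.46 (adjusted p = 0.00573), and after glycerol Sox11 was lower in libraries labelled C3-/- than in WT by a log2 difference of -2.84 ± 0.46 (adjusted p = 0.00115). Its difference in responses, -2.53 ± 0.66, did not pass the test (adjusted p = 0.117). Sox6, the lowest of the list in WT, had a log2 fold change of -1.73 ± 0.62 (adjusted p = 0.0535). A coding stretch in the HMG box is shown for Sox9, Sox4 and Sox11 because these 3 genes had the same direction in WT. It is the stretch where Sox4 and Sox11 are most alike to Sox9 without gaps. Whether reads were shared between these genes was not tested. The stretches are 221 bases from GENCODE M21 transcripts, and capitals mark bases that differ from Sox9.
Sox9: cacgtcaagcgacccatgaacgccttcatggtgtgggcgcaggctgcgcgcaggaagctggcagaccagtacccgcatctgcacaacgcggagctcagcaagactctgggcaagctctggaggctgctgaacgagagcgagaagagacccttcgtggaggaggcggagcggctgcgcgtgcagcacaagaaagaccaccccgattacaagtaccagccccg
Sox4: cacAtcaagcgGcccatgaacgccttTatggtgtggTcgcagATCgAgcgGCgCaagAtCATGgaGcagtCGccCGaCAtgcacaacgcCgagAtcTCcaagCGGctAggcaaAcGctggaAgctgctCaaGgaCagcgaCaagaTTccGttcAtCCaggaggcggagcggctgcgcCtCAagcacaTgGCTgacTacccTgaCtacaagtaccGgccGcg
Sox11: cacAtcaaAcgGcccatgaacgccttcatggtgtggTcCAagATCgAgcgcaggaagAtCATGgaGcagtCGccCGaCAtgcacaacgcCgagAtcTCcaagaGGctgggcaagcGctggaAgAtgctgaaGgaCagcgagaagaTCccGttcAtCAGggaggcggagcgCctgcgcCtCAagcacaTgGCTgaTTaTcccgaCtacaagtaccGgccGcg
Over these bases Sox4 was 74.7% identical to Sox9 with a longest shared run of 20 bases. Sox11 was 75.6% identical to Sox9 with a longest run of 24. Sox4 and Sox11 were 91.0% identical to each other with a run of 48, so the pair is closer to each other than either is to Sox9.

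Cd44 (ENSMUSG00000005087, chr2:102811141-102901665, minus strand) was the next most raised of the 8 genes in WT. Glycerol libraries labelled C3-/- had 63.2, 112.2, 33.5 and 129.1 normalized counts, against 73.9, 50.3, 61.7 and 43.5 in PBS libraries with that label. Libraries of WT mice given glycerol had 548.5, 822.7, 431.3 and 176.6, against 90.3, 88.6, 93.4 and 71.6 in WT PBS libraries. The WT groups did not overlap, and the list 2 library was the lowest of the WT glycerol libraries. Under the C3-/- label the 2 list 1 glycerol libraries lay above every PBS library and the 2 list 2 libraries did not. The log2 fold change was 0.40 ± 0.45 in libraries labelled C3-/- (adjusted p = 0.556) and 2.32 ± 0.45 in WT libraries (adjusted p = 0.00168). After glycerol Cd44 was lower in libraries labelled C3-/- than in WT, by a log2 difference of -2.51 ± 0.45 (adjusted p = 0.00201), with no overlap of the groups. Within list 1 Cd44 rose by 1.09 ± 0.25 in libraries labelled C3-/- (adjusted p = 0.00872) and by 2.75 ± 0.22 in WT (adjusted p = 1.2e-06). The difference in responses was -1.92 ± 0.63 with all libraries (adjusted p = 0.228), -2.34 without WT glycerol library 4 (adjusted p = 0.0474) and -1.66 ± 0.34 within list 1 (adjusted p = 0.0114).

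Vcam1 (ENSMUSG00000027962, chr3:116109949-116129688, minus strand) was lower under the C3-/- label than in WT after glycerol. Glycerol libraries labelled C3-/- had 253.9, 405.8, 164.8 and 271.1 normalized counts, against 203.8, 229.1, 204.8 and 198.0 in PBS libraries with that label. WT glycerol libraries had 669.1, 702.8, 687.9 and 302.3, against 294.0, 355.5, 394.9 and 296.1 in WT PBS libraries. In WT the 3 list 1 glycerol libraries were above every PBS library and glycerol library 4 lay within the range of the PBS libraries. The log2 fold changes after glycerol were 0.32 ± 0.29 in libraries labelled C3-/- (adjusted p = 0.463) and 0.75 ± 0.29 in WT (adjusted p = 0.0674), neither past the threshold. Within list 1 both were, at 0.67 ± 0.16 in libraries labelled C3-/- (adjusted p = 0.00977) and 1.04 ± 0.14 in WT (adjusted p = 5.45e-05). In the leave-one-out fits the WT value passed without WT glycerol library 4 (1.04, adjusted p = 0.00471), and also without glycerol library 2 or 3 labelled C3-/- (adjusted p = 0.0482 and 0.0407). The genotype difference after glycerol was -1.10 ± 0.29 (adjusted p = 0.0214). That call was lost without WT glycerol library 1, 2 or 3 (adjusted p = 0.0652, 0.0717 and 0.0592) or glycerol library 3 labelled C3-/- (adjusted p = 0.0658), and within list 1 the value was -1.05 ± 0.17 (adjusted p = 0.000785). After PBS the log2 difference was -0.67 ± 0.29 (adjusted p = 0.384) although all 4 libraries labelled C3-/- lay below all 4 WT libraries, as 13.1% of all genes did. Within list 1 its adjusted p was 0.00441, where 10.2% of all genes were called lower. The Vcam1 difference in responses was -0.43 ± 0.41 (limma interaction, adjusted p = 0.864), and within list 1 it was -0.38 ± 0.21 (adjusted p = 0.262).

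CD44 and VCAM-1 are carried by leukocytes and endothelium as well as by tubule cells. The summed leukocyte markers, 10 of 10 measured and none at 0, were 2718 to 6607 after glycerol and 1874 to 2151 after PBS in libraries labelled C3-/-. In WT libraries they were 4504 to 6224 after glycerol and 2801 to 3196 after PBS. Neutrophil markers, 7 of 8 measured, summed to 77.9 to 246 after glycerol and 41.3 to 64.5 after PBS in libraries labelled C3-/-, and to 536 to 1232 after glycerol and 154 to 248 after PBS in WT libraries. Of the 6 tested, 5 were called lower in libraries labelled C3-/- than in WT after glycerol, beside 4.85% of all genes. After PBS 2 of the 6 were already called lower, beside 1.19% of all genes. In the difference of responses 0 of the 6 were called, beside 0.438% of all genes. Endothelial markers, 11 of 11 measured, summed to 11970 to 16417 after glycerol and 17421 to 19197 after PBS in libraries labelled C3-/-, and to 14098 to 18361 after glycerol and 19784 to 21282 after PBS in WT libraries. As a group, WT glycerol libraries had the highest neutrophil sums and the highest Cd44. Inside the group, list 1 libraries 3, 1 and 2 had the same order in both. Their neutrophil sums were 536, 625 and 1232, with Cd44 at 431.3, 548.5 and 822.7. The list 2 library, WT glycerol library 4, departed from that order. It had a neutrophil sum of 992 with the lowest Cd44 of its group, 176.6. The endothelial sums of WT glycerol libraries lay below those of both PBS groups in 3 of 4 libraries. Fibroblast and mural cell markers, 10 of 10 measured and none at 0, summed to 6634 to 12599 after glycerol and 7628 to 9134 after PBS in libraries labelled C3-/-, and to 12907 to 22125 after glycerol and 10408 to 15040 after PBS in WT libraries. After glycerol 4 of the 10 were called lower and 1 higher in libraries labelled C3-/- than in WT. That comparison called 4.85% of all genes lower and 6.38% higher, and the difference of responses called 0 of the 10. Parietal epithelium markers, 5 of 5 measured and Pax8 among them, summed to 7606 to 16493 after glycerol and 15915 to 16407 after PBS in libraries labelled C3-/-, and to 11543 to 17742 after glycerol and 13362 to 15185 after PBS in WT libraries. In WT 2 of the 5 were called higher after glycerol, 1 of them being Pax8 itself, beside 12.5% of all genes. The difference of responses called 1 of the 5 lower, which was not Pax8, beside 0.216% of all genes. The part of these cells in the values of the 8 genes was not tested.

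Cd24a (ENSMUSG00000047139, chr10:43578284-43584265, plus strand) had the widest range of the 8 genes among WT glycerol libraries, with the highest library 6.73-fold above the lowest. Glycerol libraries labelled C3-/- had 6335.1, 9888.4, 2004.9 and 11449.9 normalized counts, against 6337.1, 7572.5, 7309.9 and 5433.2 in PBS libraries with that label. In WT, glycerol libraries had 21409.9, 40591.5, 21147.4 and 6032.6, against 6195.3, 6610.6, 6283.3 and 7158.0 in WT PBS libraries. The 3 list 1 WT glycerol libraries were far above WT PBS and the list 2 library was just below it. Under the C3-/- label the list 1 glycerol libraries were above every PBS library and those of list 2 were not. The log2 fold change was -0.10 ± 0.53 in libraries labelled C3-/- (adjusted p = 0.911) and 1.48 ± 0.53 in WT (adjusted p = 0.0526). Without WT glycerol library 4 the WT value was 2.01 (adjusted p = 0.0049), and it also passed without glycerol library 3 or 4 labelled C3-/- (adjusted p = 0.0174 and 0.0457). Within list 1 Cd24a rose by 0.69 ± 0.23 in libraries labelled C3-/- (adjusted p = 0.0453) and by 2.01 ± 0.20 in WT (adjusted p = 5.58e-06). The genotype difference after glycerol was -1.57 ± 0.53 (adjusted p = 0.0725), and it was -2.10 without WT glycerol library 4 (adjusted p = 0.00573) and -1.87 without glycerol library 4 labelled C3-/- (adjusted p = 0.0404). The Cd24a difference in responses was -1.58 ± 0.75 (limma interaction, adjusted p = 0.49), and within list 1 it was -1.32 ± 0.30 (adjusted p = 0.0192).

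Prom1 (ENSMUSG00000029086, chr5:43993620-44102032, minus strand) did not pass the test in any of the 5 comparisons with all 16 libraries and no covariate. Glycerol libraries labelled C3-/- had 3348.2, 2341.3, 1421.4 and 1267.6 normalized counts, against 3844.4, 3570.5, 3565.2 and 1773.7 in PBS libraries with that label. Libraries of WT mice given glycerol had 2389.4, 3072.9, 2343.2 and 1851.5, against 2267.0, 1947.5, 1993.6 and 2189.4 in WT PBS libraries. The WT groups overlapped and the libraries labelled C3-/- split inside each treatment. Under that label the 3 libraries with Ddx3y (PBS 4, glycerol 3 and 4) were at 1267.6 to 1773.7, and the 5 without it were at 2341.3 to 3844.4. In a fit of group, list and Ddx3y presence, a split chosen after its values were seen, libraries with Ddx3y were lower in Prom1 by a log2 difference of -1.05 ± 0.15 (present minus absent; limma, adjusted p = 0.000918). Of all genes 4.4% were called in that fit, and none of the other 7 genes were, although Sox4, Vcam1 and Pax2 had an unadjusted p below 0.05. In the same fit Prom1 was lower after glycerol in libraries labelled C3-/- than in WT, by a log2 difference of -0.82 ± 0.16 (adjusted p = 0.00224). Every WT library held Ddx3y, so the Ddx3y term was estimated from libraries labelled C3-/- alone and carried over to WT. Without covariates the genotype difference after glycerol was -0.29 ± 0.30 (limma, adjusted p = 0.6). The log2 fold change after glycerol was -0.65 ± 0.30 in libraries labelled C3-/- (adjusted p = 0.193) and 0.18 ± 0.30 in WT (adjusted p = 0.681).

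Pax8 (ENSMUSG00000026976, chr2:24420560-24475599, minus strand) rose in WT kidneys and Pax2 did not pass the test. For Pax8, glycerol libraries labelled C3-/- had 3806.2, 3101.8, 3500.4 and 2731.2 normalized counts, against 2779.0, 3021.8, 2332.7 and 2301.3 in PBS libraries with that label. WT glycerol libraries had 3805.6, 4218.5, 3977.0 and 6249.0, against 2430.4, 2268.1, 2125.0 and 3019.3 in WT PBS libraries. The WT groups did not overlap, and under the C3-/- label 3 of 4 glycerol libraries stood above every PBS library. The log2 fold change was 0.33 ± 0.18 in libraries labelled C3-/- (adjusted p = 0.261) and 0.87 ± 0.18 in WT (adjusted p = 0.00304), and the WT call was kept in every leave-one-out fit (0.71 to 0.98). After glycerol the genotypes differed by -0.46 ± 0.18 in Pax8 (adjusted p = 0.133). The Pax8 difference in responses was -0.54 ± 0.26 (limma interaction, adjusted p = 0.495). Pax2 (ENSMUSG00000004231, chr19:44756045-44837871, plus strand) had 836.5, 912.5, 626.7 and 734.0 normalized counts in glycerol libraries labelled C3-/- and 624.1, 958.6, 896.2 and 586.2 in PBS libraries with that label. In WT it had 571.8, 440.1, 536.3 and 501.0 after glycerol, against 617.9, 585.3, 568.6 and 902.8 after PBS. Every WT glycerol library was below every glycerol library labelled C3-/-, yet the log2 difference of 0.59 ± 0.20 did not pass the test (adjusted p = 0.0779), and with list as a covariate it did (0.62 ± 0.19, adjusted p = 0.0251). The log2 fold changes of Pax2 after glycerol were 0.04 ± 0.20 in libraries labelled C3-/- (adjusted p = 0.91) and -0.36 ± 0.20 in WT (adjusted p = 0.206).

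Of the 4 genes that rose in WT kidneys, 3 have an entry in the RefSeq promoter table (GRCm38.p6), and the 250 bases before the start are shown for them because these genes were called in WT and the windows differ in CCAAT boxes. Capitals mark matches to the CCAAT box, read on either strand, so ATTGG is a match. Sox4 lies at chr13:28953700-28953949, Cd44 at chr2:102901666-102901915 and Pax8 at chr2:24475600-24475849, all on the minus strand.
Sox4: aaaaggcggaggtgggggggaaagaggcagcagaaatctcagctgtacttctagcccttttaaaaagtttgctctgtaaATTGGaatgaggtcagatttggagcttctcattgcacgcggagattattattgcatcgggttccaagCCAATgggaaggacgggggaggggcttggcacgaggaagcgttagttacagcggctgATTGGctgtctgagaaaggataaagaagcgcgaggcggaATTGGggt
Cd44: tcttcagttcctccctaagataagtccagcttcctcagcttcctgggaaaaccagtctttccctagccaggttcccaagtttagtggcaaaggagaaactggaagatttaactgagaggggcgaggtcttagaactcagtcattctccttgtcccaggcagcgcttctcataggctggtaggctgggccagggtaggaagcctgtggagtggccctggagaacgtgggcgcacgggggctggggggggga
Pax8: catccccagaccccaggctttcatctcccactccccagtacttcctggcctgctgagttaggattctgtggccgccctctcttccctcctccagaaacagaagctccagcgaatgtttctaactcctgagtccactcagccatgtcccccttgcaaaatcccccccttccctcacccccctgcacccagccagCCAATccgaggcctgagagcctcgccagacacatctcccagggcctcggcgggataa
CCAAT occurred 4 times for Sox4, 1 time for Pax8 and not for Cd44, and 33.8% of 32851 promoters of this length held it. None of the 3 windows held the other motifs searched on both strands, some of whose matches can overlap a CCAAT box: TGANTCA for AP-1 (6.75% of promoters), TTCNNNGAA for STAT (7.02%), ACAATG for SOX factors (10.7%) and TATAAA for the TATA box (12.4%). In GC content the windows were 50.8% for Sox4, 56.4% for Cd44 and 60.4% for Pax8, beside a median of 52.4% over all promoters. A match describes letters in the window and not a bound site.

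Set side by side, the genotypes differed after glycerol in 3 of the 8 genes, Sox9, Cd44 and Vcam1, all lower in libraries labelled C3-/-. Of all genes 4.85% were called lower and 11.2% in either direction. Within list 1 the count was 6 of 8 lower, with Sox4 (-0.56), Cd24a (-1.31) and Pax8 (-0.46) added, where 14.7% of all genes were called lower. Sox9 and Cd44 lay entirely below WT and Pax2 entirely above it, where 11.3% of all genes had groups that did not overlap. Sox4 differed by -1.08 ± 0.38 (adjusted p = 0.0852), and without glycerol library 1 labelled C3-/- by -1.35 (adjusted p = 0.0325). After PBS 0 of the 8 genes were called by limma, Vcam1 alone had an unadjusted p below 0.05, and 2.23% of all genes were called (1.19% lower). In the difference of responses 1 of 8 was called, Sox9, and within list 1 the count was 3, with Cd44 (-1.66) and Cd24a (-1.32) added, all negative, where 5.45% of all genes were called lower.

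**Figure D2:**
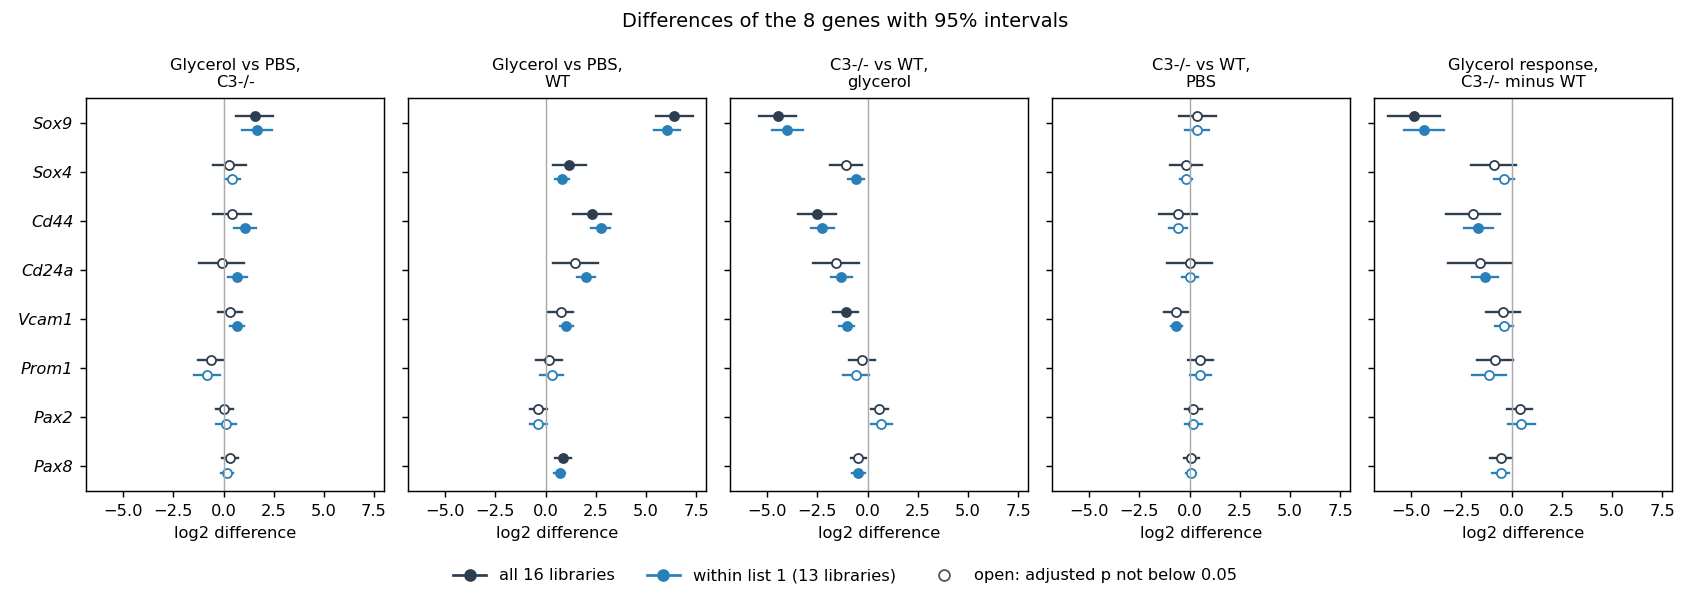
Log2 difference of each gene in the 5 comparisons with its 95% interval, from all 16 libraries (dark) and within list 1 (blue), with open points where the adjusted p was not below 0.05. Sox9 is the only gene with a filled dark point in the rightmost panel, at -4.86.

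The glycerol libraries differed among themselves in a way that ran across the 8 genes. WT glycerol library 4 was the highest of its group for Sox9, Sox4 and Pax8 and the lowest for Cd44, Cd24a, Vcam1 and Prom1. Against the mean of the WT PBS libraries its log2 difference was 7.53 for Sox9 and 2.30 for Sox4, but -0.12 for Cd24a and -0.14 for Vcam1. Glycerol library 3 labelled C3-/-, also of list 2, had the smallest Sox9 difference at 0.59 and the lowest Cd24a difference at -1.72. Its proximal tubule marker sum of 344656 was the highest of the 8 glycerol libraries and lay at the level of PBS libraries. Other marker sums of that library lay below every PBS library. They were 114074 for thick ascending limb and distal tubule, 6492 for podocytes and 7606 for parietal epithelium. WT glycerol library 2 had the lowest proximal tubule sum, 37002, together with the highest Cd44 difference at 3.25 and the highest Cd24a difference at 2.63. The part of list, tissue composition or RNA quality in these patterns was not tested.

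**Figure D3:**
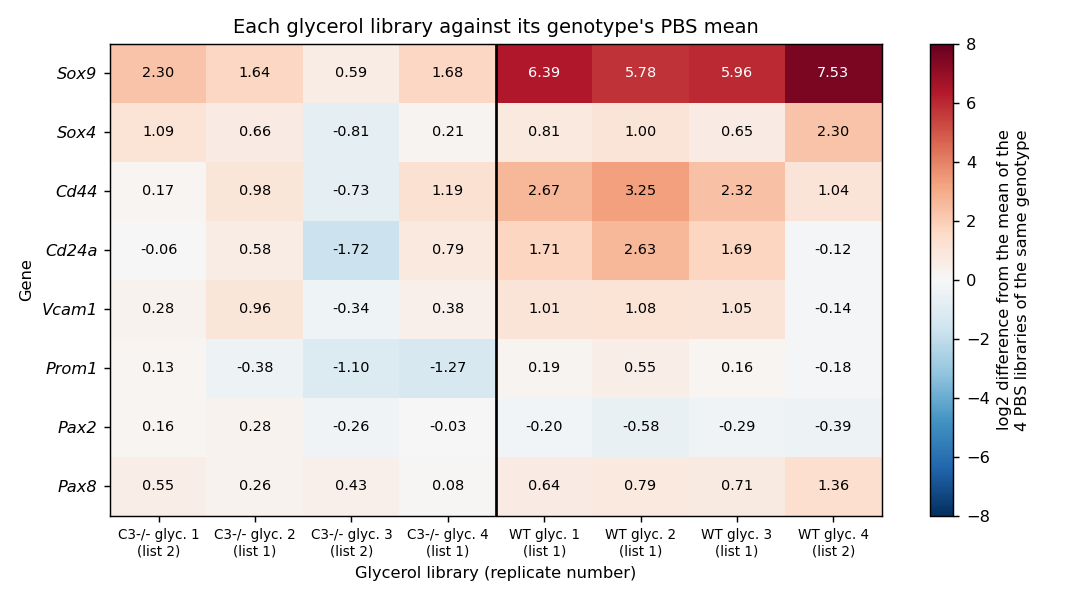
Log2 difference of each glycerol library (columns, libraries labelled C3-/- left and WT right) from the mean of the 4 PBS libraries of its genotype, for the 8 genes (lines), in colour and digits. Sox9 ranges over 0.59 to 2.30 in libraries labelled C3-/- and over 5.78 to 7.53 in WT libraries.

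Divided by exon length, Cd24a was the most abundant of the 8 genes in all 4 groups, and Sox9 changed its place. In WT PBS libraries Sox9 was the lowest at 3.34 ± 1.06 normalized counts per kb (SD, n = 4), under Cd44 at 12.7 ± 1.44. In WT glycerol libraries it reached 334 ± 208 per kb, a level within the spread of Prom1 at 336 ± 70.0 and Sox4 at 218 ± 136, and above Pax2 at 94.7 ± 10.4, Cd44 at 73.0 ± 39.6 and Vcam1 at 66.6 ± 21.7. In glycerol libraries labelled C3-/- it was 14.2 ± 6.31 per kb, beside 12.5 ± 6.50 for Cd44. Cd24a was 2876 ± 1627 per kb after glycerol and 2583 ± 379 after PBS in libraries labelled C3-/-, and 8642 ± 5488 after glycerol and 2543 ± 169 after PBS in WT libraries.

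Among genes known from scattered or dedifferentiated tubule cells, more were called after glycerol in WT than under the C3-/- label. In libraries labelled C3-/- 4 of 20 were called higher and 0 lower, and in WT 12 were called higher and 2 lower. Of all genes 3.68% were called higher in libraries labelled C3-/-, and 12.5% higher and 13.3% lower in WT. The median log2 fold change of the list was 0.57 in libraries labelled C3-/- and 1.23 in WT, beside -0.06 and -0.11 for all genes. The 4 called under the C3-/- label were also called in WT. Plaur, the urokinase receptor, rose by 2.53 ± 0.42 in libraries labelled C3-/- and by 3.72 ± 0.42 in WT on the log2 scale (adjusted p = 0.0026 and 3.14e-05). Anxa3, an annexin, rose by 2.49 ± 0.45 and 3.49 ± 0.45 in these comparisons, S100a6, a calcium-binding protein, by 2.84 ± 0.55 and 4.03 ± 0.55, and Myof, a membrane-repair protein, by 1.47 ± 0.33 and 2.32 ± 0.33. The 2 that fell in WT were Prom2, the relative of Prom1, by a log2 fold change of -1.31 ± 0.42, and Bcl2, a survival factor, by -0.67 ± 0.17. Sox9 was thus not alone in passing the test under the C3-/- label. With all 16 libraries, 0 of these 20 genes were called in the difference of responses, with 5 at an unadjusted p below 0.05 (limma). Within list 1 that test called 9 of the 20 lower and 0 higher, where 5.45% of all genes were called lower.

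A pair of retinoic acid enzymes on that list differed between the genotypes after glycerol, in opposite directions. Aldh1a1 averaged 1660 ± 901 normalized counts after glycerol and 820 ± 203 after PBS in libraries labelled C3-/- (SD, n = 4 each). In WT it averaged 201 ± 54.0 after glycerol and 165 ± 15.7 after PBS. It was higher in libraries labelled C3-/- than in WT by 2.87 ± 0.38 after glycerol (adjusted p = 0.000184) and by 2.28 ± 0.38 after PBS (adjusted p = 0.00315). Aldh1a2 averaged 432 ± 549 after glycerol and 121 ± 40.8 after PBS in libraries labelled C3-/-, and 1890 ± 964 after glycerol and 72.4 ± 27.7 after PBS in WT. It was lower in libraries labelled C3-/- than in WT after glycerol, by a log2 difference of -2.85 ± 0.69 (adjusted p = 0.0141). Its glycerol libraries labelled C3-/- ranged from 67.1 to 1241. The glycerol responses themselves were all upward: 0.83 under the C3-/- label and 0.24 in WT for Aldh1a1, neither called. For Aldh1a2 they were 1.02 under the C3-/- label, not called, and 4.61 in WT, called. Aldh1a3, also on the list, averaged 33.6 ± 13.1 after glycerol under the C3-/- label and 47.2 ± 24.5 in WT.

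Some ligands and partners of CD44 were also called higher in WT. Of 20 tested, 1 was called higher and 0 lower in libraries labelled C3-/-, and 7 higher and 1 lower in WT, beside 3.68% of all genes higher in libraries labelled C3-/- and 12.5% higher in WT. Spp1, which encodes the CD44 ligand osteopontin, averaged 134051 ± 69411 normalized counts after glycerol and 32965 ± 7887 after PBS in libraries labelled C3-/-, and 726550 ± 295955 after glycerol and 24731 ± 1118 after PBS in WT. It rose by 1.81 ± 0.47 in libraries labelled C3-/- (adjusted p = 0.0345) and by 4.78 ± 0.47 in WT (adjusted p = 9.79e-06). Msn, moesin, which links CD44 to the actin cortex, rose by 1.72 ± 0.23 in WT, and Has1, a hyaluronan synthase, by 2.98 ± 0.59. After glycerol 6 of the 20 were called lower in libraries labelled C3-/- than in WT and 0 higher (4.85% of all genes lower), among them Mmp14, a protease that cuts CD44, by -1.80 ± 0.28, Cemip, which degrades hyaluronan, by -2.65 ± 0.46, and Spp1 by -2.59 ± 0.47. The median of the list was -0.43, beside 0.04 for all genes. After PBS, where 0 of the 20 were called, Cemip averaged 6.54 ± 1.14 in libraries labelled C3-/- and 15.7 ± 6.81 in WT. Mmp14 averaged 208 ± 35.9 and 263 ± 36.4 in these groups. The difference of responses called 0 of the 20, with 7 at an unadjusted p below 0.05 (limma). Within list 1, where 18 were tested, it called 3 lower and 0 higher, beside 5.45% of all genes lower.

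Of 16 genes for leukocyte adhesion beside VCAM-1, 1 was called higher and 0 lower in libraries labelled C3-/-, and 4 higher and 0 lower in WT, beside 3.68% and 12.5% of all genes higher in these comparisons. Icam1, an adhesion molecule for leukocyte integrins, rose by 1.31 ± 0.27 in libraries labelled C3-/- (adjusted p = 0.01) and by 1.82 ± 0.27 in WT (adjusted p = 0.000242). Selp, which encodes P-selectin of activated endothelium, averaged 7.39 ± 5.34 after glycerol and 6.05 ± 4.38 after PBS in libraries labelled C3-/-, and 91.2 ± 27.8 after glycerol and 6.99 ± 4.59 after PBS in WT (SD, n = 4 each). After glycerol 3 were lower in libraries labelled C3-/- than in WT and 0 higher (4.85% of all genes lower): Selp by -3.60 ± 0.53, Itgam, the CD11b integrin chain of myeloid cells, by -2.97 ± 0.54, and Icam1 by -1.17 ± 0.27. After PBS Itgam averaged 25.4 ± 5.4 in libraries labelled C3-/- and 71.2 ± 12.2 in WT, and Icam1 316 ± 30.3 and 498 ± 57.9. Both were thus lower under that label without glycerol too, although 0 of the 16 genes were called there. Itga4, a chain of the VCAM-1 receptor, was not called in WT after glycerol (-0.62). The difference of responses called 0 of the 16, with 1 at an unadjusted p below 0.05 (limma). Within list 1 it called 3 of the 16 lower and 0 higher, beside 5.45% of all genes lower.

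Among other factors of nephron development, those called in WT went the other way from Pax8. Of 25 tested, 0 were called higher and 0 lower in libraries labelled C3-/- (6 at an unadjusted p below 0.05, limma), and 0 higher and 8 lower in WT. Of all genes 1.96% were called lower in libraries labelled C3-/- and 13.3% lower in WT. The WT falls included Osr2 by a log2 fold change of -1.70 ± 0.28, Lhx1 by -2.68 ± 0.53 and Osr1 by -1.59 ± 0.34. Osr2 averaged 245 ± 117 normalized counts after glycerol and 432 ± 22.6 after PBS in libraries labelled C3-/-, and 84.2 ± 26.3 after glycerol and 267 ± 26.1 after PBS in WT. After glycerol it was higher in libraries labelled C3-/- than in WT by 1.47 ± 0.28 (adjusted p = 0.00337), and Hoxa11 was lower by -1.05 ± 0.29 (adjusted p = 0.0282). Proximal tubule markers fell alongside, with 0 called higher and 2 of 12 lower in libraries labelled C3-/-, and 0 higher and 10 of 12 lower in WT. The factor list and the marker list share a gene, which was called lower in WT and so counts in both. The difference of responses called 0 of the 25 factors (2 at an unadjusted p below 0.05, limma) and 0 of the 12 markers. Within list 1 it called 2 of the 25 factors higher and 0 lower, where 882 of 17673 genes were called higher.

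Notch genes direct the fate of nephron segments. Of 19 tested, 0 were called higher or lower in libraries labelled C3-/- (1 at an unadjusted p below 0.05, limma), and 0 higher and 1 lower in WT, Dll4, a ligand, by -0.49 ± 0.15. Of 16 Wnt pathway genes, 1 was called higher and 1 lower in libraries labelled C3-/-, and 2 higher and 5 lower in WT. Of all genes 3.68% were called higher and 1.96% lower in libraries labelled C3-/-, and 12.5% higher and 13.3% lower in WT, so the Notch count in WT and the higher Wnt count in WT did not exceed the share of all genes. Wnt10a, a ligand, rose in both, by 1.85 ± 0.26 and by 1.86 ± 0.26. Sfrp1, a secreted Wnt inhibitor, fell in WT libraries, with a log2 fold change of -2.05 ± 0.29. After glycerol 6 were higher in libraries labelled C3-/- than in WT and 0 lower, where 6.38% of all genes were called higher. By p the first were Lgr5, an R-spondin receptor, at 1.64 ± 0.30, and Dkk3 at 1.13 ± 0.22, and by size Lgr6, a relative of Lgr5, at 2.30 ± 0.57. Lgr5 averaged 68.9 ± 24.8 normalized counts after glycerol and 59.5 ± 14.7 after PBS in libraries labelled C3-/-, and 20.7 ± 3.81 after glycerol and 27.0 ± 2.54 after PBS in WT (SD, n = 4 each). Its genotype difference after PBS was 1.07 ± 0.30 and that of Dkk3 0.72 ± 0.22, neither past the threshold (adjusted p = 0.0836 and 0.131). The difference of responses called 0 of the 19 Notch genes and 0 of the 16 Wnt pathway genes. Within list 1 it called 0 of the 19 Notch genes, and 1 higher and 1 lower of the 16 Wnt pathway genes. In that fit 882 of 17673 genes were called higher and 963 lower.

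**Figure D4:**
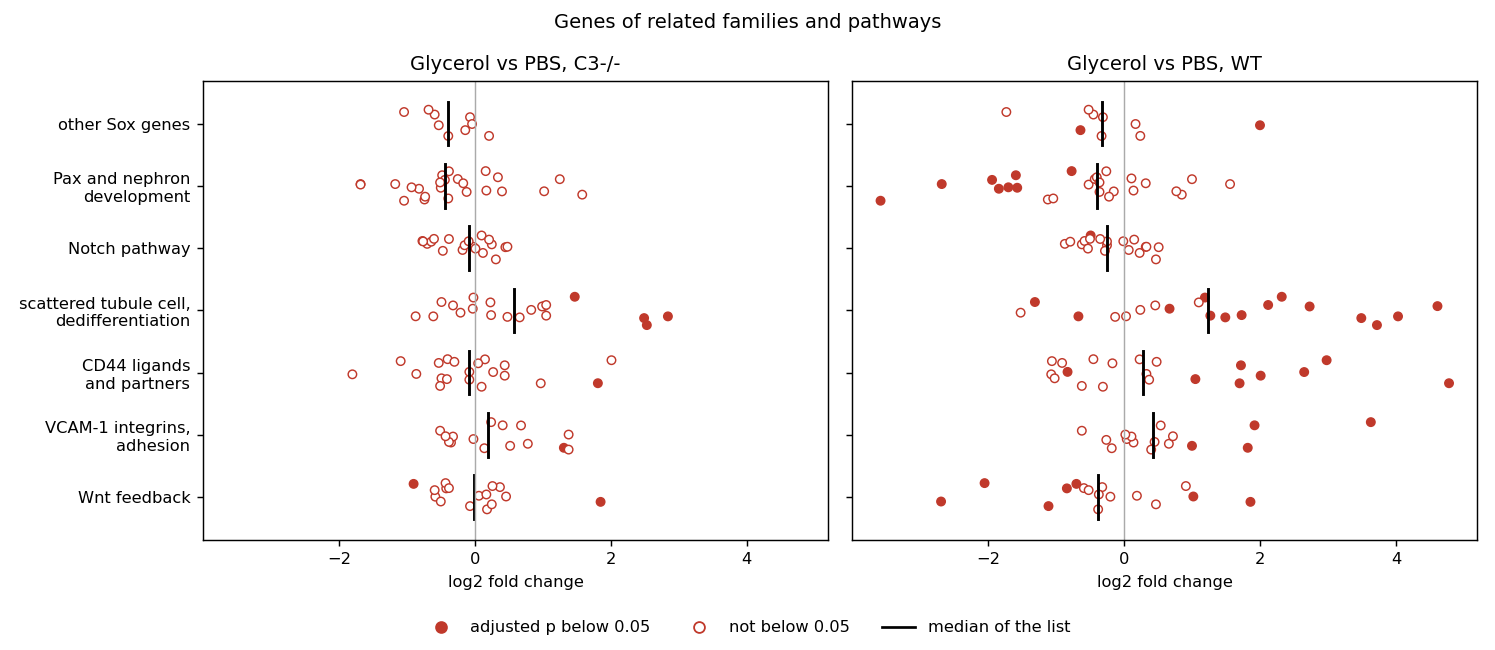
Log2 fold change after glycerol of each tested gene of 7 related lists, in libraries labelled C3-/- (left) and WT libraries (right), filled where the adjusted p was below 0.05, with a bar at the list median. The scattered tubule cell list has its median at 0.57 on the left and 1.23 on the right.

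Across the 16 libraries the genes whose log2 values followed Sox9 most closely, among 13777 with a mean of at least 50, were Raph1, Efhd2, Flot1, Bdkrb2 and Relb, with Pearson r from 0.964 to 0.973. Within the 13 list 1 libraries their r was 0.953 to 0.978. Cd44 was followed most closely by Clu, Arl4c and Vasp (0.966 to 0.968), Cd24a by Snu13, Acsl4 and Cxadr (0.970 to 0.979) and Vcam1 by Prrg4, Hnrnpc and Itgam (0.937 to 0.945). Sox4 was followed by Pmepa1, Plxna2 and Ube2m (0.930 to 0.934) and Pax8 by Sphk1, Fndc4 and Cenpt (0.941 to 0.949). Pax2 and Prom1 had looser companions, Crebbp, Arhgef17 and Asrgl1 (0.830 to 0.871) and Ptpro, Pcolce2 and Fam169a (0.809 to 0.820). Ptpro is a podocyte marker. These values describe libraries that share groups and processing, and carry no test.

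The authors' own comparisons cover 3 of the 5 contrasts. In libraries labelled C3-/-, Sox9 alone of the 8 was called higher after glycerol in the authors' deposited table (1.64, adjusted p = 0.00677), where 10.4% of all genes were called higher. For WT the authors' deposited table called 6 higher, with Cd24a (1.76, adjusted p = 0.00218) and Vcam1 (0.85, adjusted p = 0.0115) beside the 4 called by limma, where 15.9% of all genes were called higher. Between the genotypes after glycerol the authors' deposited table called Sox9 (-4.55), Cd44 (-2.57), Vcam1 (-1.14), Cd24a (-1.59) and Sox4 (-1.08) lower and Pax2 (0.60, adjusted p = 0.0415) higher in libraries labelled C3-/-, where 16.8% of all genes were called in either direction.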

How the data were processed

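RNA was sequenced from kidney sections of 4 groups of 4 libraries, grouped by sample title. The authors deposited a signal matrix of counts normalized with DESeq2. Tools named in the submitters' processing notes are STAR 2.7.1, DESeq2 and R 3.6.1, with the build GRCm38, and genes are from Ensembl 96 per the file headers. How reads were counted, strand setting included, is not given in the labels or headers. The authors also deposited log2 fold changes with p-values for 3 comparisons. Only 1.78% to 2.11% of each library's values came out as whole multiples of the lowest (tolerance 0.01). Whole reads were therefore not recovered, the depth is unknown, and tests for counts were not used.

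For testing, 1 was added to each normalized count before taking log2, and limma 3.58.1 (mean-variance trend) was run in R 4.3.3. Genes with at least 10 in at least 4 libraries were kept (18035, all 8 members among them). All 16 libraries were fitted with 1 coefficient per group in 5 contrasts, with Benjamini-Hochberg adjustment over all genes tested and calls at an adjusted p below 0.05. Fold changes on this scale understate those of low genes. Code was tested on simulated data. Alternatives were a pseudocount of 8, no filter, no trend, rescaling to the 75th percentile, list 1 only, list with or without Y-linked transcripts (Ddx3y of at least 100) as covariates, a replicate block, and each library left out.

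The members, related lists and markers were chosen with earlier results of these data known. Named genes of a list are called ones among the 4 with the smallest p in a comparison, the members whose values bound the list, and a few relatives of the 8 genes. Like genes are the 5 (for Sox9) or 3 of highest Pearson r, where the mean was 50 or more. Positions and coding sequences are from GENCODE M21 (GRCm38). Promoters are from RefSeq, where 5 of the 8 genes matched. For Sox9, Vcam1 and Cd24a no promoter was used here. A named gene of the nephron development list is not reported here.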

Additional observations from a re-analysis of the deposited data

Results flagged for a closer look

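Sox9 responded differently to glycerol in the 2 genotypes: the difference of its log2 responses was -4.86 (C3-/- minus WT) in the limma interaction test. In 32 sets of 4 libraries (8 genes in 4 groups), 2 held a library far from the other 3 by Dixon's criterion at the 95% level on the log2 scale, and chance gives about 1 in 20 such sets. Vcam1 in WT glycerol library 4, of list 2, was 302.3, against 669.1 to 702.8 in the other WT glycerol libraries. Prom1 in PBS library 4 labelled C3-/- was 1773.7, against 3565.2 to 3844.4 in the other PBS libraries with that label. That library alone of its group held Ddx3y transcripts, at 1396. On the normalized counts themselves 5 sets passed, the 3 others being Sox4 in WT glycerol library 4 (2016.9, against 640.9 to 815.5), Pax8 in the same library (6249.0, against 3805.6 to 4218.5) and Pax2 in WT PBS library 4 (902.8, against 568.6 to 617.9).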

How the results depend on the processing

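Of the values other than leave-one-out ones, 276 kept their direction and side of the threshold, 32 newly passed it, 4 no longer did and 8 reversed. Of the leave-one-out values, 599 kept both, 10 newly passed, 22 no longer did and 9 reversed. The cause of these changes was not tested. For glycerol against PBS in libraries labelled C3-/-, where 1 of the 8 genes was called, the count was 0 with a pseudocount of 8 or no filter, 4 within list 1, 2 with list as a covariate (Cd44 and Vcam1, with Sox9 lost at 1.3, adjusted p = 0.0741) and 4 with list and Y-linked transcripts, and 0 to 1 when a library was left out. For WT the count of 4 was 6 within list 1 and in both covariate fits, and 3 to 6 with a library left out. For the genotypes after glycerol the count of 3 was 6 within list 1 and 7 with either covariate fit (Pax2 higher with list, Prom1 lower in its place with list and Y-linked transcripts), and 2 to 4 with a library left out. For the genotypes after PBS the count of 0 was 1 (Vcam1) in these 3 fits and 0 in every leave-one-out fit. For the difference of responses the count of 1 was 3 in these 3 fits (Sox9 and Cd44 with Cd24a within list 1, and with Pax8 in place of Cd24a in both covariate fits, at -0.66 and -0.61) and 1 to 2 with a library left out, the 2 being without WT glycerol library 4. The Sox9 difference of responses was called in every fit run. With list and Y-linked transcripts as covariates the C3-/- minus WT difference after PBS reversed to -0.09 for Sox9, -0.42 for Cd24a, -0.25 for Prom1, -0.12 for Pax2 and -0.05 for Pax8, none called. The Cd24a response under the C3-/- label reversed to 0.69 within list 1, 0.81 with list and 0.95 with list and Y-linked transcripts, and ranged from -0.40 to 0.44 when a library was left out. Leaving out a library also reversed small values of Cd24a after PBS (-0.05 to 0.11) and of the Pax2 response under the C3-/- label (-0.08 to 0.16).

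Replicate numbers did not pair the samples: of 24 same-numbered pairs 4 had a correlation above 0.1, and 8 correlated best with their own number. With the replicate block the counts were 0 for glycerol under the C3-/- label (Sox9, 1.55, adjusted p = 0.0835), 4 for WT, 3 and 0 for the genotypes after glycerol and after PBS, and 1 for the difference of responses. Over all genes the replicate block gave 428 higher and 204 lower under the C3-/- label against 663 and 353 without it, and 41 in the difference of responses against 79. A pseudocount of 8 gave 59 higher and 82 lower there. Within list 1 the counts over all genes were 4118 under the C3-/- label, 9925 in WT, 5373 and 3448 between genotypes after glycerol and after PBS, and 1845 in the difference, against 1016, 4666, 2025, 402 and 79. With list as a covariate they were 2608, 8339, 5720, 1510 and 1324, and with list and Y-linked transcripts 3393, 8886, 6068, 628 and 1580. With a library left out they ranged from 491 (without PBS library 1 labelled C3-/-) to 2785 under the C3-/- label, 3429 to 5338 in WT, 1361 to 4367 and 211 to 614 between genotypes after glycerol and after PBS, and 38 to 211 in the difference; apart from WT, each highest count was without WT glycerol library 4. Counts under the C3-/- label were also over 1.5 times lower without PBS library 2 (505) or 3 (543) or glycerol library 1 (569) of that label, and higher without its glycerol library 2 (1582) or 4 (1561). The difference gave 179 without glycerol library 1 labelled C3-/-, 44 without WT glycerol library 1, and 38 to 42 without any 1 PBS library other than library 4 labelled C3-/-. Between genotypes after PBS the count was 211 to 242 without any 1 PBS library other than that one. With 4 libraries a group and no known depth, only the spread between libraries limits each value.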

Other observations

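Red cell transcripts and markers of tubule segments beyond the proximal tubule also differed between groups. Erythroid markers summed to 17570 to 20389 after glycerol and 5995 to 11487 after PBS in libraries labelled C3-/-, and to 13156 to 26511 after glycerol and 15465 to 24684 after PBS in WT libraries. Of 6 erythroid genes tested, 3 were called higher after glycerol in libraries labelled C3-/- and 1 lower in WT, where 3.68% and 13.3% of all genes were called in these directions. After PBS 4 of the 6 were called lower in libraries labelled C3-/- than in WT, as were 1.19% of all genes. Collecting duct markers were lower after glycerol in WT for 4 of 9, and after glycerol 4 of 9 were higher in libraries labelled C3-/- than in WT. Of thick ascending limb and distal tubule markers, 7 of 9 were lower after glycerol in WT and 1 of 9 under the C3-/- label, and after glycerol 5 of 9 were higher in libraries labelled C3-/- than in WT. Of all genes 13.3% were called lower after glycerol in WT, 1.96% lower under the C3-/- label, and 6.38% higher in libraries labelled C3-/- than in WT after glycerol. The difference of responses called 1 of the 9 thick ascending limb and distal tubule markers higher. It called 0 of the 9 collecting duct markers and 0 of the 6 erythroid genes, beside 0.438% of all genes. The erythroid and collecting duct lists share a gene, Slc4a1, so their counts are not fully separate.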
